A study of Mus musculus with 6 samples.

Results

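Transcripts of the mitochondrial genome were taken as every row of the expression table whose gene name starts with mt-. The rule gave 37 of the 32479 rows in the table, comprising 13 messenger RNA genes, 2 ribosomal RNA genes and 22 transfer RNA genes. Of these, 28 are read from the heavy strand and lie on the plus strand of the reference, and 9 are read from the light strand. All 37 had a mean of at least 1 FPKM over the libraries and were therefore tested.

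The series modelled liver cirrhosis in C57BL/6J mice with carbon tetrachloride (labelled CCL4), a solvent that injures the liver, and asked what this does to the heart. The CCL4 group held 3 treated mice and the Control group held 3 mice labelled control, with 1 library of primary cardiac fibroblasts, as labelled, from each mouse. Both groups are of the same inbred strain, and the labels name no transgene or deleted gene in either. The sources used here name no dose, route or duration of the treatment, no vehicle for the Control mice, no age or sex, and no way of isolating the cells.

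The mitochondrial genome is a small circle that encodes core proteins of the respiratory chain and ATP synthase, together with the ribosomal and transfer RNAs needed to translate them inside the organelle. Both strands are transcribed into long precursors, and transfer RNAs that lie between the other genes are cut out, which frees the messenger and ribosomal RNAs. Most mitochondrial messengers then receive a short poly(A) tail, and heart muscle, which depends on respiration for its work, is among the tissues richest in them.

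Expression was measured as FPKM, the fragments counted on a gene per kilobase of its length, scaled to the fragments of the library. RNA was captured on oligo(dT) beads, which hold poly(A) tails, and was read for 150 bases from each end of a fragment. The deposited values do not give the number of fragments, and a rough estimate from the steps between low values was 30080000 to 37380000 per CCL4 library and 40400000 to 43010000 per Control library. Only 25% to 39.83% of low values came within 0.1 of a whole fragment, so the estimate does not establish a difference in depth between groups. A difference is given as log2 of (FPKM + 1), CCL4 minus Control, with its standard error (SE). It was called at an adjusted p under 0.05 in limma with Benjamini-Hochberg adjustment over 10995 rows. By this rule 31.8% of all tested rows were called, 9.64% as higher and 22.2% as lower in CCL4 libraries, and the median log2 fold change of all rows was -0.09.

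Marker genes went against the label. The median marker of heart muscle cells lay at 878, 762 and 780 FPKM in CCL4 libraries and at 736, 697 and 720 FPKM in Control libraries, while the median fibroblast marker lay at 14.6, 12.7 and 14.1 FPKM in CCL4 libraries and at 5.06, 3.49 and 6.13 FPKM in Control libraries. All 20 muscle markers and all 15 fibroblast markers had a mean above the filter, so no defining marker was absent. In bulk RNA, fewer cells of a type and less RNA per cell cannot be told apart. CCL4 replicate 3 stood apart from the other 5 libraries over 4 neighbouring genes, mt-Ti, mt-Tq, mt-Tm and mt-Nd2, whose values are given with and without it.

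The 37 rows together summed to 313727, 311726 and 316773 FPKM in CCL4 libraries, against 252637, 275338 and 274028 FPKM in Control libraries. Every CCL4 library lay above every Control library. As a share of all FPKM this was 52.05%, 52.96% and 53.17% in CCL4 libraries and 48.62%, 50.73% and 50.53% in Control libraries, a difference of 2.76 percentage points. An exact two-sided permutation test gave p = 0.1, the smallest that 3 against 3 libraries allow.

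Of the 20 heart muscle markers 5 were called higher (25%, against 9.64% of all tested rows) and 1 lower (5%, against 22.2%). The list had 14 not called and a median log2 fold change of 0.17, and without Control replicate 1 the count called higher was 8. The summed FPKM of the 20 markers was 26097, 23913 and 24497 in CCL4 libraries and 21015, 18118 and 17760 in Control libraries. Most of that difference lay in 1 gene, Actc1, the actin of the heart muscle filament, at 5840 ± 261 FPKM in CCL4 libraries and 1735 ± 477 FPKM in Control libraries (SD, n = 3 each). With Actc1 left out, a step chosen after seeing the data, the sum was 20006, 18344 and 18637 in CCL4 libraries and 18739, 16744 and 16205 in Control libraries, and the groups overlapped. Myh7, a myosin heavy chain, was the marker called lower, at 71.2 ± 9.84 FPKM in CCL4 libraries and 955 ± 574 FPKM in Control libraries.

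The mitochondrial sum was 12.02, 13.04 and 12.93 times that of the muscle markers in CCL4 libraries and 12.02, 15.20 and 15.43 times in Control libraries. With Actc1 left out it was 15.68, 16.99 and 17.00 times in CCL4 libraries and 13.48, 16.44 and 16.91 times in Control libraries. The groups overlapped on both ratios, and the mean was lower in CCL4 libraries with Actc1 and higher without it. All 5 tested haemoglobin and red cell markers were also called higher in CCL4 libraries (100%, against 9.64% of all tested rows). The median over all 7 listed, tested or not, was 372, 670 and 530 FPKM in CCL4 libraries and 366, 75.0 and 117 FPKM in Control libraries. Without CCL4 replicate 1 the count called higher was 3. It was 0 without CCL4 replicate 2, CCL4 replicate 3, Control replicate 2 or Control replicate 3. Of the 15 fibroblast markers 8 were called higher (53.3%, against 9.64% of all tested rows) and none lower. None was lower at an unadjusted p under 0.05 in limma either, although some of those not called had estimates below 0. The fibroblast list had a median log2 fold change of 0.35. Its summed FPKM was 656, 662 and 666 in CCL4 libraries and 578, 495 and 807 in Control libraries, with overlap. Of the 10 smooth muscle and pericyte markers 3 were called higher (30%, against 9.64% of all tested rows) and none lower. Those called higher included Acta2, smooth muscle actin (log2 fold change 1.05, adjusted p = 0.0013, limma), and 1 marker was lower at an unadjusted p under 0.05 in limma. The count called higher was 5 without CCL4 replicate 1, and 1 without CCL4 replicate 2, CCL4 replicate 3 or Control replicate 2. Of the 10 endothelial markers 1 was called higher (10%), as was 1 of the 8 tested macrophage and leukocyte markers (12.5%). Both shares were near the 9.64% of all tested rows, and neither list had a marker called lower. The summed FPKM of the smooth muscle, endothelial and macrophage lists also overlapped between groups. The part of these cell types in the mitochondrial differences was not tested.

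Among the members 12 were called higher in CCL4 libraries (32.4%, against 9.64% of all tested rows) and 8 were called lower (21.6%, against 22.2% of all tested rows). The median log2 fold change of the 37 was 0.21. The direction differed by class. The messenger RNAs had 7 members called higher (53.85%) and none lower, and both ribosomal RNAs were called lower. The transfer RNAs had 5 called higher (22.73%) and 6 called lower (27.27%, near the 22.2% of all tested rows). In 26 of the 37 (70.3%) the groups did not overlap, against 48.7% of all tested rows. Of those 26, 18 had every CCL4 library above every Control library and 8 had every CCL4 library below.

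**Figure D1:**
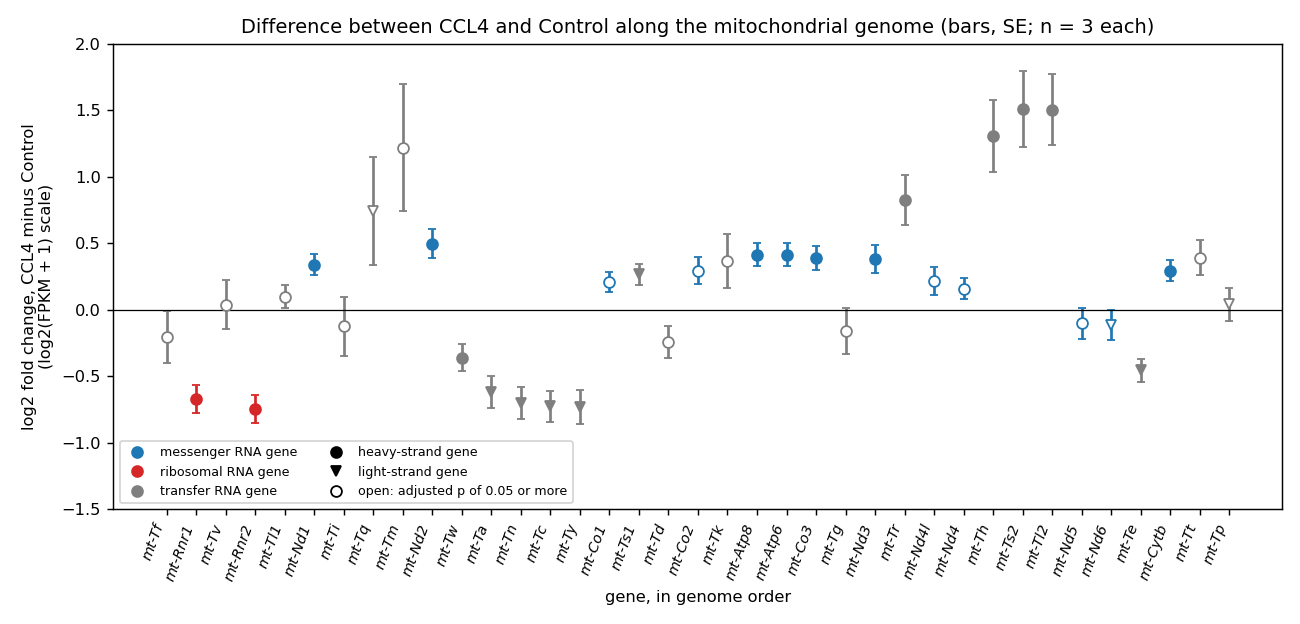
Log2 fold change on the log2(FPKM + 1) scale, CCL4 minus Control, for the 37 genes in genome order (points, limma estimate; bars, SE; n = 3 libraries in each group). The ribosomal RNAs and the run from mt-Tw to mt-Ty lie below 0, most messenger RNAs lie between 0.16 and 0.50, and mt-Th, mt-Ts2 and mt-Tl2 lie above 1.

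Both ribosomal RNAs, which build the mitochondrial ribosome, were lower in CCL4 libraries. mt-Rnr1 (chrM:70-1024, plus strand, GRCm38), the 12S RNA of the small mitochondrial ribosomal subunit, had 1436, 1381 and 1185 FPKM in CCL4 libraries, against 2084, 2324 and 1947 FPKM in Control libraries. It fell by 0.67 on the log2 scale (SE 0.10, adjusted p = 0.0029, limma). mt-Rnr2 (chrM:1094-2675, plus strand), the 16S RNA of the large subunit, had 2361, 2628 and 2127 FPKM in CCL4 libraries, against 3628, 4315 and 3963 FPKM in Control libraries. It fell by 0.74 on the log2 scale (SE 0.11, adjusted p = 0.0019).

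For both genes the highest CCL4 library lay below the lowest Control library, and both remained called in all 18 alternative analyses. The log2 ratio of 12S to 16S averaged -0.83 ± 0.11 in CCL4 libraries and -0.91 ± 0.11 in Control libraries (SD over 3 libraries each; exact two-sided permutation test, p = 0.5). Together they made up 1.21%, 1.29% and 1.05% of the mitochondrial sum in CCL4 libraries, against 2.26%, 2.41% and 2.16% in Control libraries. Capture on oligo(dT) favours RNAs with a tail, and these values therefore describe ribosomal RNA that passed that capture, not the total.

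mt-Tl1, the leucine transfer RNA that follows mt-Rnr2 without a gap at chrM:2676-2750, was not called. It had 2370, 2610 and 2230 FPKM in CCL4 libraries and 2262, 2170 and 2283 FPKM in Control libraries, with overlapping groups (log2 fold change 0.10, adjusted p = 0.396, limma). The ratio of mt-Tl1 to mt-Rnr2 was thus 1.004, 0.993 and 1.05 in CCL4 libraries, against 0.624, 0.503 and 0.576 in Control libraries. The transfer RNAs before mt-Rnr1 and between both ribosomal genes were low, with mt-Tf (phenylalanine) at 8.36 ± 3.14 FPKM in CCL4 libraries and 9.41 ± 0.196 FPKM in Control libraries, and mt-Tv (valine) at 17.1 ± 4.67 FPKM in CCL4 libraries and 16.2 ± 1.73 FPKM in Control libraries (SD, n = 3 each). Neither was called.

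**Figure D2:**
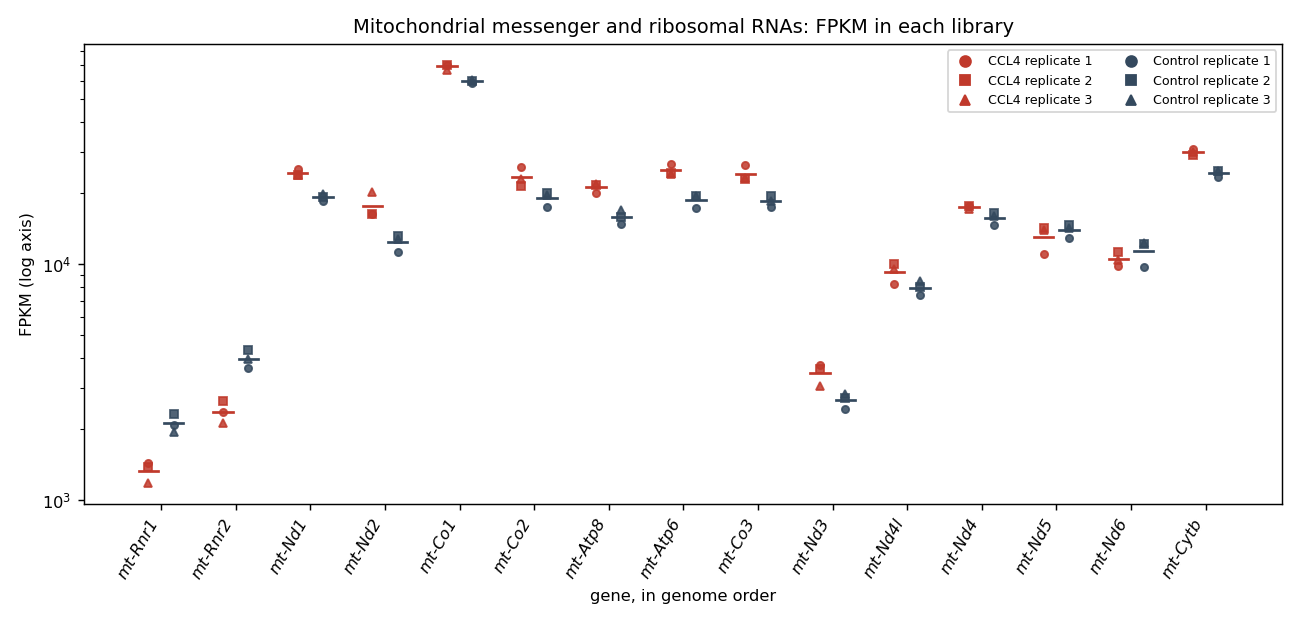
FPKM of the 13 messenger and 2 ribosomal RNA genes in each library on a log axis, in genome order (points, libraries; lines, group means; n = 3 each). Both ribosomal RNAs are lower in every CCL4 library, mt-Co1 is the most abundant member in both groups, and the groups overlap for mt-Nd4l, mt-Nd5 and mt-Nd6.

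The messenger RNAs encode subunits of 4 of the complexes of oxidative phosphorylation, and 10 of the 13 (76.9%, against 48.7% of all tested rows) did not overlap, each of them higher in every CCL4 library than in any Control library. The count without overlap in either direction was 7 when each library was brought to the same FPKM sum and 4 under quantile scaling. Their median log2 fold change was 0.30, so the rises were modest. No messenger RNA was called lower, and none was lower at an unadjusted p under 0.05 in limma either.

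The called messengers with the largest fold changes belong to ATP synthase and complex I. mt-Atp8, a small membrane subunit of ATP synthase, had 19997, 21758 and 21937 FPKM in CCL4 libraries, against 14871, 15892 and 16996 FPKM in Control libraries (log2 fold change 0.42, SE 0.09, adjusted p = 0.0096, limma). mt-Atp6, the subunit that forms the proton path through the membrane, had 26564, 24400 and 24270 FPKM in CCL4 libraries, against 17390, 19484 and 19545 FPKM in Control libraries (log2 fold change 0.42, SE 0.09, adjusted p = 0.0096). In both genes the lowest CCL4 library lay above the highest Control library.

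These 2 genes share bases on the same strand, and the 43 shared bases are shown because a fragment that lies there belongs to both.
mt-Atp8 and mt-Atp6, chrM:7917-7979, plus strand: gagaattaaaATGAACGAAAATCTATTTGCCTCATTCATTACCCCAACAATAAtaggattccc

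Capitals mark the bases that lie in both genes, from the start codon of mt-Atp6 to the last annotated base of mt-Atp8. The ratio of mt-Atp8 to mt-Atp6 was 0.753, 0.892 and 0.904 in CCL4 libraries and 0.855, 0.816 and 0.870 in Control libraries, so the groups overlapped. As a share of all mitochondrial messenger FPKM, the ATP synthase pair took 15.94%, 16.08% and 16.08% in CCL4 libraries, against 14.24%, 14.35% and 14.83% in Control libraries (exact two-sided permutation test, p = 0.1).

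Complex I, which oxidises NADH, has 7 mitochondrial subunits, of which 3 were called higher and none lower. Of all tested rows 9.64% were called higher and 22.2% lower. mt-Nd1 had 25311, 23994 and 23811 FPKM in CCL4 libraries, against 18546, 19368 and 19852 FPKM in Control libraries (log2 fold change 0.34, SE 0.08, adjusted p = 0.014, limma). mt-Nd2 had 16421, 16317 and 20209 FPKM in CCL4 libraries, against 11313, 13180 and 12861 FPKM in Control libraries (log2 fold change 0.50, SE 0.11, adjusted p = 0.012). CCL4 replicate 3 was the highest, and without it the log2 fold change of mt-Nd2 was 0.40 with an adjusted p of 0.041.

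mt-Nd3, the least abundant of the 7 subunits, was higher, with 3755, 3589 and 3055 FPKM in CCL4 libraries, against 2441, 2703 and 2826 FPKM in Control libraries (log2 fold change 0.38, SE 0.10, adjusted p = 0.026, limma). mt-Nd4 had 17718, 17746 and 17163 FPKM in CCL4 libraries and 14650, 16437 and 16043 FPKM in Control libraries (log2 fold change 0.16, SE 0.08, adjusted p = 0.165). Its groups did not overlap, although it was not called. As a share of the mitochondrial sum mt-Nd4 went the other way and was lower in every CCL4 library. It took 5.65%, 5.69% and 5.42% in CCL4 libraries, against 5.80%, 5.97% and 5.85% in Control libraries (exact two-sided permutation test, p = 0.1). mt-Nd4l, which shares 7 bases with mt-Nd4, had 8226, 10067 and 9532 FPKM in CCL4 libraries and 7381, 7984 and 8507 FPKM in Control libraries, with overlap and no call (log2 fold change 0.22, SE 0.10, adjusted p = 0.138).

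The last pair of complex I genes, which overlap by 14 bases on opposite strands, had estimates below 0. mt-Nd5 had 11112, 14193 and 13931 FPKM in CCL4 libraries and 12965, 14676 and 14280 FPKM in Control libraries (log2 fold change -0.10, SE 0.11, adjusted p = 0.519, limma). mt-Nd6, the only messenger read from the light strand, had 9862, 11288 and 10404 FPKM in CCL4 libraries and 9722, 12205 and 12318 FPKM in Control libraries (log2 fold change -0.11, SE 0.11, adjusted p = 0.477). The groups overlapped for both levels. As shares of the mitochondrial sum they did not overlap, since mt-Nd5 took 3.54%, 4.55% and 4.40% in CCL4 libraries, against 5.13%, 5.33% and 5.21% in Control libraries. mt-Nd6 took 3.14%, 3.62% and 3.29% in CCL4 libraries, against 3.85%, 4.43% and 4.50% in Control libraries (exact two-sided permutation test, p = 0.1 for each).

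Complex III has a single mitochondrial subunit. mt-Cytb, cytochrome b, had 30837, 29122 and 29831 FPKM in CCL4 libraries, against 23445, 24928 and 24769 FPKM in Control libraries (log2 fold change 0.30, SE 0.08, adjusted p = 0.023, limma). By the FPKM of the members' own rows, without the nuclear copies described below, it was the second most abundant member by group mean in both groups. Its groups did not overlap.

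Complex IV, cytochrome c oxidase, holds the most abundant member. mt-Co1, its catalytic subunit, had 70111, 70086 and 66946 FPKM in CCL4 libraries and 58794, 60188 and 60203 FPKM in Control libraries (log2 fold change 0.21, SE 0.08, adjusted p = 0.071, limma). mt-Co2, which takes the electrons from cytochrome c, had 25913, 21529 and 23000 FPKM in CCL4 libraries and 17532, 20135 and 19684 FPKM in Control libraries (log2 fold change 0.29, SE 0.10, adjusted p = 0.056). Neither passed the test, although neither overlapped between groups.

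mt-Co3, a structural core subunit, was the member of complex IV that did pass, with 26255, 23030 and 23310 FPKM in CCL4 libraries, against 17476, 19402 and 18584 FPKM in Control libraries (log2 fold change 0.39, SE 0.09, adjusted p = 0.014, limma). Complex IV as a whole took 40.4% ± 1.29 of messenger FPKM in CCL4 libraries and 40.6% ± 0.741 in Control libraries (SD over 3 libraries each; exact two-sided permutation test, p = 0.7). Complex I took 33.2% ± 1.37 in CCL4 libraries and 34.8% ± 0.657 in Control libraries (exact permutation test, p = 0.2), and complex III took 10.4% ± 0.208 in CCL4 libraries and 10.2% ± 0.159 in Control libraries (exact permutation test, p = 0.2). Against the summed FPKM of the 77 tested nuclear genes of the same complexes, the mitochondrial messenger sum was 22.6, 24.8 and 23.8 times as large in CCL4 libraries and 17.1, 21.3 and 21.9 times in Control libraries, without overlap.

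The count of messenger calls depended on the filter, the scaling and the libraries used. With no filter on low rows none of the 7 was called at the same fold changes, and under quantile scaling 1 remained called higher, 3 were called lower, and mt-Nd1, mt-Co2, mt-Nd3 and mt-Nd4 had estimates below 0. Quantile scaling gives every library the same set of values, and the 19 most abundant tested rows were all mitochondrial genes or their nuclear copies. Without Control replicate 2 the count called higher was 4, and mt-Nd1 was among those lost (adjusted p = 0.062). mt-Nd3 was also lost without CCL4 replicate 1 or 2, and mt-Cytb without CCL4 replicate 1, CCL4 replicate 3, Control replicate 2 or Control replicate 3, at adjusted p-values up to 0.080. Rescaling each library to the same FPKM sum moved the median of all rows to -0.21, and the messenger median was then 0.14 with 5 called higher, mt-Nd3 (adjusted p = 0.084) and mt-Cytb (adjusted p = 0.099) being lost. With the replicate number as a block 6 were called higher, mt-Nd3 being lost (adjusted p = 0.054). With a filter at a mean of 5 FPKM 9 were called higher.

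**Figure D3:**
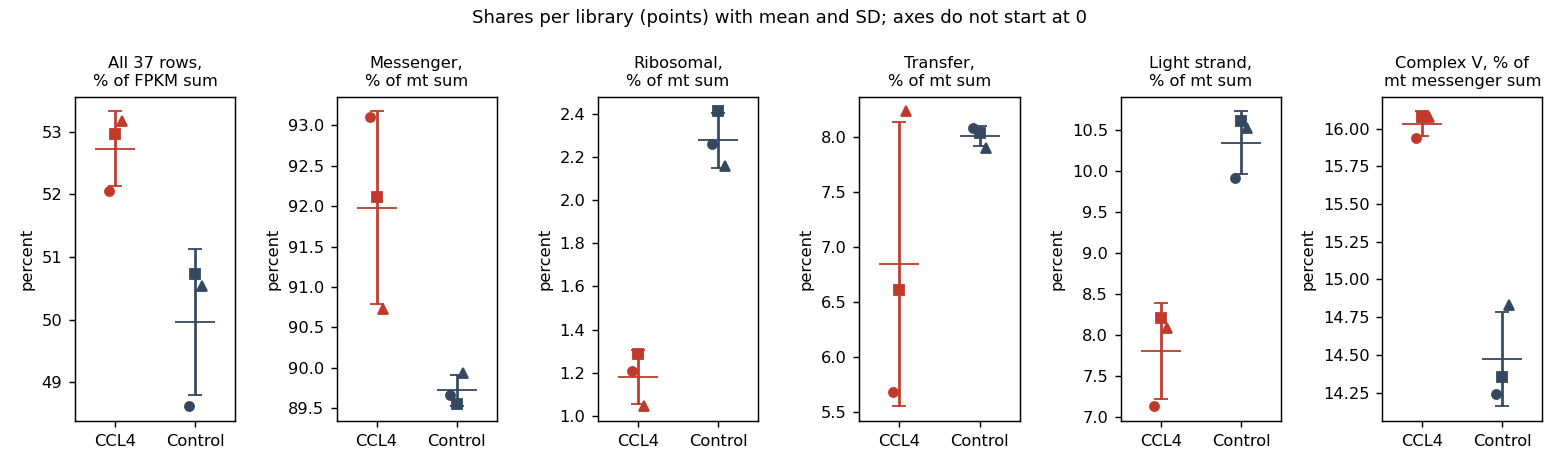
Shares in percent by library (points), with mean and SD (n = 3 each), for all 37 rows out of all FPKM, for each class and the light-strand genes out of the mitochondrial sum, and for ATP synthase (complex V) out of the mitochondrial messenger sum; the axes do not start at 0. CCL4 libraries lie apart from Control libraries in every panel except that of the transfer RNAs, where CCL4 replicate 3 lies highest at 8.23%.

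By class, messenger RNAs took 92.0% ± 1.19 of the mitochondrial sum in CCL4 libraries and 89.7% ± 0.199 in Control libraries (SD, n = 3 each), and ribosomal RNAs took 1.18% ± 0.123 in CCL4 libraries and 2.28% ± 0.128 in Control libraries. Transfer RNA genes took 5.69%, 6.61% and 8.23% in CCL4 libraries and 8.07%, 8.03% and 7.90% in Control libraries, with overlap that came from CCL4 replicate 3. Their difference was -1.16 percentage points with all libraries (exact two-sided permutation test, p = 0.4) and -1.85 without that library. The 9 light-strand genes took 7.14%, 8.21% and 8.08% in CCL4 libraries, against 9.91%, 10.6% and 10.5% in Control libraries, with no overlap. Of 10 such summary measures 5 reached p = 0.1 in exact permutation tests, and the smallest value after Benjamini-Hochberg adjustment was 0.2. Of the 37 single shares 23 did not overlap, 11 of them higher and 12 lower in CCL4 libraries, with a smallest adjusted p of 0.161 in exact permutation tests. In level, 48.7% of all tested rows did not overlap. Shares of the same sum are tied to each other, so the higher and the lower shares are not separate results.

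The transfer RNA genes are 59 to 75 bases long, shorter than a single read of 150 bases, and mature mitochondrial transfer RNAs carry no poly(A) tail. Fragments from mature transfer RNAs and fragments from longer precursors or neighbouring messengers cannot be told apart in these values. The 22 genes had a median log2 fold change of 0.04. Of them 5 were called higher (22.73%, against 9.64% of all tested rows) and 6 lower (27.27%, against 22.2%), and 11 were not called. The share called lower was near that of all rows.

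**Figure D4:**
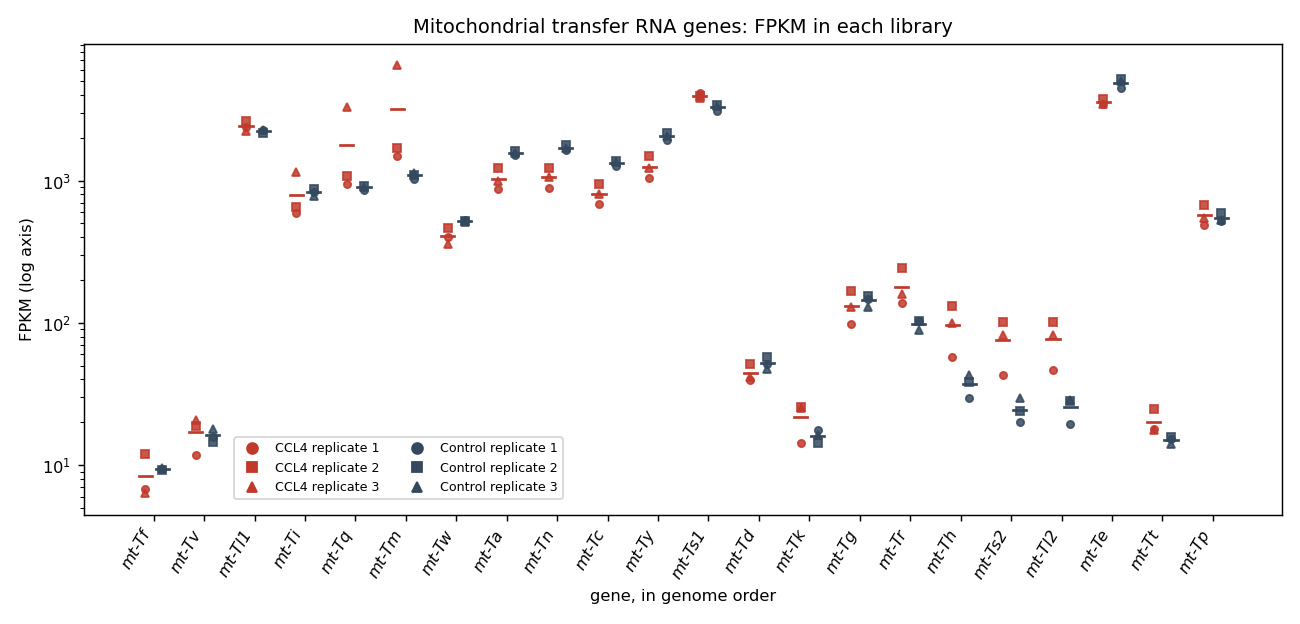
FPKM of the 22 transfer RNA genes in each library on a log axis, in genome order (points, libraries; lines, group means; n = 3 each). The run from mt-Tw to mt-Ty and mt-Te are lower in CCL4 libraries, mt-Tr, mt-Th, mt-Ts2 and mt-Tl2 are higher, and CCL4 replicate 3 is far above the rest for mt-Tq and mt-Tm.

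A block of 4 light-strand genes between mt-Nd2 and mt-Co1 fell together. The sequences, from the GENCODE M21 transcripts, are shown because they are neighbours read from the same strand and moved by nearly the same amount; capitals mark the anticodon, in DNA letters, and all are read 5′ to 3′ on the minus strand of GRCm38.
mt-Ta (alanine), chrM:5018-5086: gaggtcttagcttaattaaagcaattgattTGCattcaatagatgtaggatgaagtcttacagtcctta
mt-Tn (asparagine), chrM:5089-5159: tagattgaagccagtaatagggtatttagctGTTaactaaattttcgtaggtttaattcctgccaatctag
mt-Tc (cysteine), chrM:5192-5257: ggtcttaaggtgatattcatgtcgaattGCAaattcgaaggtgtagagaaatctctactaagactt
mt-Ty (tyrosine), chrM:5260-5326: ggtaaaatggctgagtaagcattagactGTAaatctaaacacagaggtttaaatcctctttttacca

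mt-Ta had 872, 1228 and 996 FPKM in CCL4 libraries, against 1526, 1620 and 1558 FPKM in Control libraries (log2 fold change -0.62, SE 0.12, adjusted p = 0.0077, limma). mt-Tn had 881, 1228 and 1054 FPKM in CCL4 libraries, against 1629, 1774 and 1702 FPKM in Control libraries (log2 fold change -0.70, SE 0.12, adjusted p = 0.0045). Both were lower in every CCL4 library. mt-Tc had 684, 943 and 801 FPKM in CCL4 libraries, against 1270, 1370 and 1342 FPKM in Control libraries (log2 fold change -0.72, SE 0.12, adjusted p = 0.0035). mt-Ty had 1046, 1482 and 1225 FPKM in CCL4 libraries, against 1938, 2160 and 2074 FPKM in Control libraries (log2 fold change -0.73, SE 0.13, adjusted p = 0.0046). In each of the 4 genes CCL4 replicate 1 was the lowest and CCL4 replicate 2 the highest of the treated libraries, and every one remained called in all 18 alternative analyses.

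Grouped after their values were seen, the 4 genes together took 1.11%, 1.57% and 1.29% of the mitochondrial sum in CCL4 libraries and 2.52%, 2.52% and 2.44% in Control libraries. mt-Tw (tryptophan, chrM:4950-5016), the heavy-strand gene just before them, had 401, 463 and 358 FPKM in CCL4 libraries, against 530, 519 and 512 FPKM in Control libraries (log2 fold change -0.36, SE 0.10, adjusted p = 0.029, limma). It did not overlap between groups, but its call held in only 10 of 18 alternatives. It was lost without CCL4 replicate 1, CCL4 replicate 3, Control replicate 2 or Control replicate 3, with adjusted p-values up to 0.103.

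A second run, on the heavy strand between mt-Nd4 and mt-Nd5, went the other way from a much lower level. These 3 genes lie end to end, and capitals again mark the anticodon, here on the plus strand.
mt-Th (histidine), chrM:11546-11612: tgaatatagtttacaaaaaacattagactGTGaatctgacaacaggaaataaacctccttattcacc
mt-Ts2 (serine), chrM:11613-11671: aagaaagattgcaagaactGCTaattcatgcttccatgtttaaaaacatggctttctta
mt-Tl2 (leucine), chrM:11671-11741: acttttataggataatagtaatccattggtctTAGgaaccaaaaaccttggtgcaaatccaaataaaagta

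mt-Th had 58.0, 132 and 100.4 FPKM in CCL4 libraries, against 29.5, 38.5 and 42.7 FPKM in Control libraries (log2 fold change 1.31, SE 0.27, adjusted p = 0.0091, limma). mt-Ts2 had 42.7, 101 and 82.3 FPKM in CCL4 libraries, against 20.0, 24.1 and 29.5 FPKM in Control libraries (log2 fold change 1.51, SE 0.29, adjusted p = 0.0064). mt-Tl2 had 46.8, 102 and 81.8 FPKM in CCL4 libraries, against 19.6, 28.3 and 28.6 FPKM in Control libraries (log2 fold change 1.505, SE 0.27, adjusted p = 0.0050).

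In all 3 the lowest CCL4 library, replicate 1, was above the highest Control library, and all 3 remained called in all 18 alternative analyses. Their mean FPKM was 2.63 times, 3.07 times and 3.01 times that of Control libraries, for mt-Th, mt-Ts2 and mt-Tl2 in that order, the widest differences among the called members. They are also scarce, and the 3 together were 0.05%, 0.11% and 0.08% of the mitochondrial sum in CCL4 libraries and 0.03%, 0.03% and 0.04% in Control libraries. The genes on either side, mt-Nd4 and mt-Nd5, were not called.

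The other transfer RNA called clearly higher was mt-Tr (arginine, chrM:9808-9875), between mt-Nd3 and mt-Nd4l, with 137, 241 and 159 FPKM in CCL4 libraries, against 104, 102 and 88.7 FPKM in Control libraries (log2 fold change 0.82, SE 0.19, adjusted p = 0.013, limma). It did not overlap and was called in 17 of 18 alternatives. mt-Ts1 (serine, chrM:6870-6938), a light-strand gene whose end overlaps mt-Co1 by 3 bases, had 4144, 3922 and 3789 FPKM in CCL4 libraries, against 3100, 3407 and 3341 FPKM in Control libraries (log2 fold change 0.27, SE 0.08, adjusted p = 0.037). Its groups did not overlap, but the call held in only 8 of 18 alternatives. It was lost whichever library was left out, with adjusted p-values up to 0.093. The ratio of mt-Ts1 to mt-Co1 was 0.059, 0.056 and 0.057 in CCL4 libraries and 0.053, 0.057 and 0.055 in Control libraries, with overlap.

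mt-Te (glutamate, chrM:14071-14139), the light-strand gene that lies beside mt-Nd6, had the highest mean FPKM of the transfer RNA genes over all libraries and was lower in CCL4 libraries. It had 3467, 3747 and 3482 FPKM in CCL4 libraries, against 4471, 5153 and 5049 FPKM in Control libraries (log2 fold change -0.45, SE 0.09, adjusted p = 0.0068, limma). The groups did not overlap, and it was called in 17 of 18 alternatives. The ratio of mt-Te to mt-Nd6 was 0.352, 0.332 and 0.335 in CCL4 libraries, against 0.460, 0.422 and 0.410 in Control libraries. With mt-Te, 5 of the 9 light-strand genes were called lower (55.6%, against 22.2% of all tested rows). Apart from mt-Te, those called lower were the neighbours mt-Ta, mt-Tn, mt-Tc and mt-Ty. The 1 called higher was mt-Ts1 (11.1%, against 9.64%), and the median log2 fold change of the 9 was -0.45.

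mt-Tm (methionine, chrM:3845-3913) showed how far CCL4 replicate 3 departed. It had 1481, 1701 and 6458 FPKM in CCL4 libraries and 1029, 1098 and 1137 FPKM in Control libraries (log2 fold change 1.22, SE 0.48, adjusted p = 0.085, limma). Without CCL4 replicate 3 the log2 fold change was 0.55 with an adjusted p of 0.016. Every CCL4 library was above every Control library, and the SE was 0.11 without replicate 3.

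The genes next to it shared the pattern. mt-Tq (glutamine, chrM:3772-3842), on the light strand, had 947, 1074 and 3307 FPKM in CCL4 libraries and 863, 914 and 909 FPKM in Control libraries (log2 fold change 0.74, SE 0.41, adjusted p = 0.194, limma; 0.17 with an adjusted p of 0.264 without CCL4 replicate 3). mt-Ti (isoleucine, chrM:3706-3774) had 591, 648 and 1152 FPKM in CCL4 libraries and 830, 876 and 786 FPKM in Control libraries. Its log2 fold change was -0.12 and not called with all libraries, and -0.42 with an adjusted p of 0.029 without CCL4 replicate 3. The high value of that library was not seen in mt-Nd1, the gene before this group, or in mt-Tw, the gene after mt-Nd2, in both of which replicate 3 was the lowest of the CCL4 libraries.

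The remaining transfer RNA genes were not called. mt-Td (aspartate) had 39.6, 51.4 and 41.7 FPKM in CCL4 libraries and 51.8, 57.8 and 47.4 FPKM in Control libraries, with overlap in level. Its share of the mitochondrial sum did not overlap, at 0.013%, 0.017% and 0.013% in CCL4 libraries, against 0.021%, 0.021% and 0.017% in Control libraries. mt-Tt (threonine) was at 18.1, 25.0 and 17.6 FPKM in CCL4 libraries and 15.2, 15.7 and 14.1 FPKM in Control libraries, just short of the call (log2 fold change 0.39, SE 0.13, adjusted p = 0.051, limma). mt-Tk (lysine), mt-Tg (glycine) and mt-Tp (proline) overlapped between groups.

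Sequence identity with the nuclear genome bears on the messenger values. On chromosome 1 the build holds a stretch of mitochondrial DNA at chr1:24611535-24616197, minus strand, 4663 bases long, with 7 annotated pseudogenes. All 7 have their own rows in the table, and 5 of them are identical over their whole length to the mitochondrial gene they copy, namely Gm28439 (mt-Nd4), Gm10222 (mt-Nd4l), Gm28437 (mt-Co3), Gm10925 (mt-Atp6) and Gm28661 (mt-Co2). The sources used here do not say how the authors placed a fragment that fits both.

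The copies of whole genes had nearly the FPKM of their originals. The ratio of Gm10925 to mt-Atp6 was 1.04, 1.04 and 1.03 in CCL4 libraries and 1.07, 1.04 and 1.06 in Control libraries. That of Gm28437 to mt-Co3 was 1.01, 0.987 and 0.999 in CCL4 libraries and 0.993, 0.996 and 1.02 in Control libraries. The 7 copies together held 120831, 109275 and 109906 FPKM in CCL4 libraries and 86457, 96503 and 96043 FPKM in Control libraries, and 3 of them, Gm10925, Gm28437 and Gm28438, were called higher in CCL4 libraries. The call of Gm28437 was lost without Control replicate 2, and that of Gm28438 without any single library other than CCL4 replicate 3. Members and copies together made 72.1%, 71.5% and 71.6% of all FPKM in CCL4 libraries, against 65.3%, 68.5% and 68.2% in Control libraries.

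**Figure D5:**
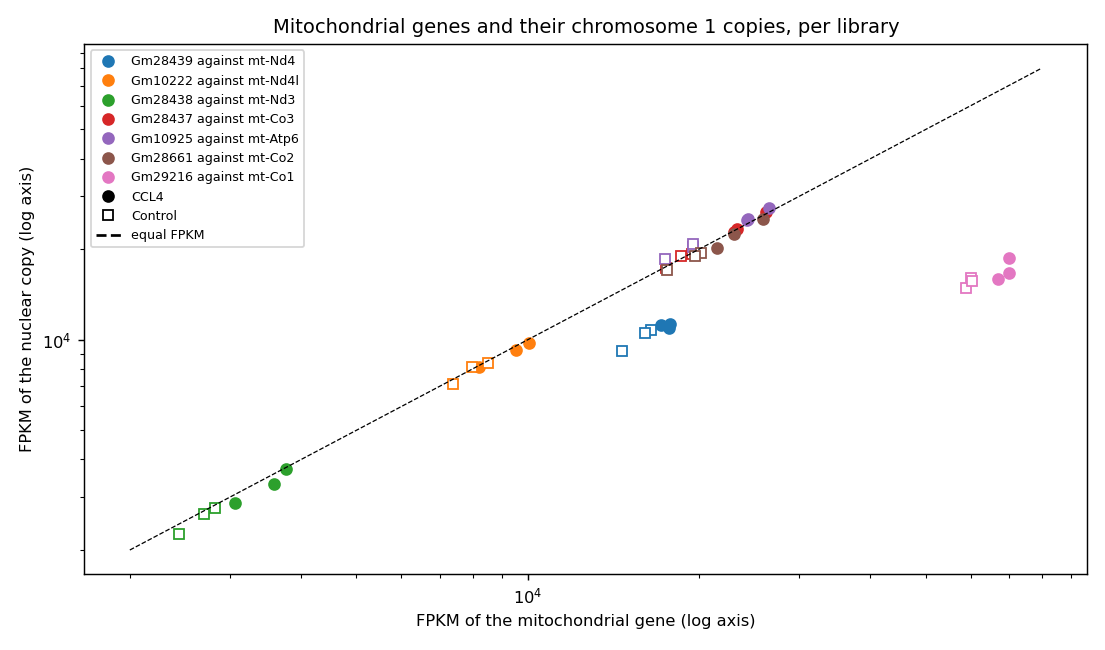
FPKM of each of the 7 chromosome 1 copies against the FPKM of the mitochondrial gene it copies, per library, on log axes (filled circles, CCL4; open squares, Control; dashed line, equal values; n = 3 each). Copies of whole genes lie on or near the line, while Gm28439, a copy of the start of mt-Nd4, and Gm29216, a copy of the end of mt-Co1, lie below it at 0.62 to 0.66 and 0.24 to 0.27 of their originals.

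Gm28438, the copy of mt-Nd3, differs from it by 1 substitution, T3C, counted from the first base of the mitochondrial gene. Gm29216 copies 492 bases of mt-Co1 from position 1054 and differs by 6 substitutions, T1056A, C1057T, A1059G, A1060G, C1062A and A1066T. All 6 fall at its start, which is shown with the matching stretch of mt-Co1 because the letters after it are the same in both.
mt-Co1, chrM:6381-6420, plus strand: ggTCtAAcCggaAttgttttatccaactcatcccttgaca
Gm29216, chr1:24616158-24616197, minus strand: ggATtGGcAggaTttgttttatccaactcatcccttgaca

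Capitals mark the bases that differ. Gm29216 had 18686, 16627 and 15877 FPKM in CCL4 libraries and 14869, 16019 and 15705 FPKM in Control libraries, with overlap and no call (log2 fold change 0.13, SE 0.09, adjusted p = 0.290, limma). When the fragments of every copy were added to its mitochondrial gene, 12 members were called higher and 8 lower, the same counts as without that step.

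Nuclear genes that maintain, transcribe and process the mitochondrial genome were read from lists by role. Of 15 tested genes of mitochondrial DNA maintenance 1 was called higher (6.67%, against 9.64% of all tested rows) and 4 lower (26.7%, against 22.2%), shares close to those of all rows, with a median log2 fold change of -0.17. Polg, the mitochondrial DNA polymerase, had 4.69 ± 0.234 FPKM in CCL4 libraries and 6.33 ± 0.702 FPKM in Control libraries (log2 fold change -0.36, adjusted p = 0.018, limma). Lig3, the ligase that seals mitochondrial DNA, was lower (log2 fold change -0.49, adjusted p = 0.0041), as were Rrm2b, a subunit of ribonucleotide reductase (-0.38, adjusted p = 0.031), and Slc25a4, the ADP/ATP carrier of heart muscle (-0.35, adjusted p = 0.012). Polg was lost without CCL4 replicate 1, CCL4 replicate 2 or Control replicate 2, and Rrm2b without any 1 of the Control libraries. Slc25a4 was lost under scaling by the trimmed mean of M-values (adjusted p = 0.075, limma). The count called lower was 2 without Control replicate 2.

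Among 9 tested genes of mitochondrial transcription 3 were called higher (33.3%, against 9.64% of all tested rows) and none lower, and none was lower at an unadjusted p under 0.05 in limma. Tfam, which packs mitochondrial DNA and helps to start transcription, had 8.14 ± 0.325 FPKM in CCL4 libraries and 6.34 ± 0.997 FPKM in Control libraries (log2 fold change 0.32, adjusted p = 0.044), and it stands in both lists. Its call was kept only when Control replicate 1 was left out, among the libraries left out in turn. Mterf2, a mitochondrial DNA-binding protein of the termination factor family, was higher (log2 fold change 0.73, adjusted p = 0.0020), as was Mrpl12, a mitochondrial ribosomal protein that also binds the polymerase (0.65, adjusted p = 0.0044). Polrmt, the mitochondrial RNA polymerase itself, was at 5.07 ± 0.456 FPKM in CCL4 libraries and 5.47 ± 0.151 FPKM in Control libraries (adjusted p = 0.389). Tfb2m, its promoter-opening partner, was at 16.8 ± 2.76 FPKM in CCL4 libraries and 19.9 ± 0.835 FPKM in Control libraries (adjusted p = 0.137).

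For the processing and decay of mitochondrial RNA 7 of 36 tested genes were called higher (19.4%, against 9.64% of all tested rows) and 4 lower (11.1%, against 22.2%), with a median of 0.10. Hsd17b10, a subunit of the mitochondrial RNase P that cuts transfer RNAs from precursors, had 59.8 ± 1.48 FPKM in CCL4 libraries and 87.4 ± 3.70 FPKM in Control libraries (log2 fold change -0.54, adjusted p = 0.0014, limma). Mrm1 and Mrm2, which methylate the 16S ribosomal RNA, were higher, with log2 fold changes of 0.72 (adjusted p = 0.0020) and 0.59 (adjusted p = 0.0033). Rcc1l, a factor of mitochondrial ribosome assembly, was lower (-0.37, adjusted p = 0.0053). Lrpprc and Slirp, which together stabilise mitochondrial messengers, were not called, at 15.8 ± 0.344 and 2.26 ± 0.394 FPKM in CCL4 libraries and 17.5 ± 2.17 and 1.76 ± 0.156 FPKM in Control libraries. The count called higher was 3 without Control replicate 2, and 4 without CCL4 replicate 3 or Control replicate 3.

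Of 37 tested genes that charge or modify mitochondrial transfer RNAs 2 were called higher (5.41%, against 9.64% of all tested rows) and 4 lower (10.8%, against 22.2%), with a median of -0.01. Both shares lay below those of all rows. The calls were led by Nsun2, a cytosine methyltransferase that also acts outside mitochondria (log2 fold change -0.61, adjusted p = 0.0013, limma), and Kars, the lysyl-tRNA synthetase of both cytosol and mitochondria (-0.56, adjusted p = 0.0025). Trmt5, which methylates transfer RNAs beside the anticodon, was lower (-0.45, adjusted p = 0.0046), and Qrsl1, part of the enzyme that completes the glutamine transfer RNA, was higher (0.45, adjusted p = 0.011). The count called higher was 4 without Control replicate 1, and 1 without CCL4 replicate 1, Control replicate 2 or Control replicate 3.

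Regulators of mitochondrial biogenesis had 4 of 11 tested genes called lower (36.4%, against 22.2% of all tested rows) and none higher, with none higher at an unadjusted p under 0.05 in limma. Ppargc1a, the coactivator PGC-1 alpha, had 9.61 ± 0.950 FPKM in CCL4 libraries and 16.2 ± 1.78 FPKM in Control libraries (log2 fold change -0.70, adjusted p = 0.0022). Myc (-0.90, adjusted p = 0.013), Gabpa, the DNA-binding subunit of nuclear respiratory factor 2 (-0.33, adjusted p = 0.023), and Yy1 (-0.29, adjusted p = 0.042) were also lower. Gabpa was lost without CCL4 replicate 1 or 2 or Control replicate 2 or 3, and Yy1 without any library other than CCL4 replicate 2. Yy1 was also lost under scaling by the trimmed mean of M-values (adjusted p = 0.078, limma). The count called lower was 2 without CCL4 replicate 1 or Control replicate 2, and 3 without each of the others.

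Of the 77 tested nuclear genes for subunits of oxidative phosphorylation 11 were called higher (14.3%, against 9.64% of all tested rows) and 5 lower (6.49%, against 22.2%), with a median of 0.05. The smallest p-values were those of Ndufa12, an accessory subunit of complex I, at 55.1 ± 4.10 FPKM in CCL4 libraries and 38.8 ± 3.96 FPKM in Control libraries (log2 fold change 0.50, adjusted p = 0.0075, limma), and of Ndufa7, another such subunit, at 33.5 ± 1.48 FPKM in CCL4 libraries and 43.3 ± 1.95 FPKM in Control libraries (-0.36, adjusted p = 0.0089). Atp5g2, a gene for the rotor ring of ATP synthase (-0.34, adjusted p = 0.0091), and Ndufa3 (-0.31, adjusted p = 0.013) were lower. The call of Ndufa3 was lost without CCL4 replicate 3. Under scaling by the trimmed mean of M-values the calls of Ndufa3 (adjusted p = 0.068, limma) and Atp5g2 (adjusted p = 0.052) were lost. The counts of this list moved with the scaling, to 2 higher and 16 lower when each library was brought to the same FPKM sum, and to 24 higher when Control replicate 1 was left out. Leaving out each of the other libraries gave 2 to 7 higher and 2 to 5 lower.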

How the data were processed

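Libraries were made from poly(A)-captured RNA with a strand-marking protocol and read as pairs, per the labels' protocols. The authors deposited 1 FPKM value per gene and library, which StringTie 2.1.6 made on GRCm38, per the submitters' processing notes. Which aligner, annotation release, filters, strand setting and rule for fragments that fit several places were used is not given in these sources. Replicates are separate mice, per the design text. Fragment counts were not recovered, since only 25% to 39.83% of low values came within 0.1 of a whole fragment at the estimated depth. No count test was therefore run, and no counting interval is given.

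The deposited FPKM values were transformed here to log2(FPKM + 1). Rows with a mean of at least 1 FPKM were fitted with limma 3.58.1 in R 4.3.3 (lmFit, eBayes with trend, two-sided, no covariate), with Benjamini-Hochberg adjustment over all 10995 rows. Fold changes on this scale understate those of low rows. The code was tested on simulated data. For shares and ratios, exact two-sided permutation tests over every split of the libraries were run in Python 3.11.15 with numpy 2.4.6. The 18 alternatives per member were pseudocounts of 0.1 and 0.01, no filter, a mean of at least 5 FPKM, a common FPKM sum (TPM), trimmed mean of M-values (TMM), median-ratio, quantile and nuclear-sum scaling, no trend, the replicate number as a block, copies added to their genes, and each of the 6 libraries left out. Shares were also weighted by gene length. Symbols were matched to GENCODE M21 (96.82% matched), which gave positions and sequences. Nuclear copies were found as transcripts sharing at least 90% of their 31-base words with a mitochondrial gene.

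The members, the gene lists and the tests were chosen with earlier results of these data known. Named genes were all messenger and ribosomal members, transfer RNA members that were among the 4 most abundant, called or without overlap in share, up to 4 called genes of each nuclear list by smallest p, Polrmt, Tfam, Tfb2m, Lrpprc, Slirp and Ppargc1a in any case, and all near-identical copies. Other members were named to account for every row, and Actc1, Myh7 and Acta2 after their values were seen.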

Additional observations from a re-analysis of the deposited data

How the results depend on the processing

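Precision is limited by 3 libraries in each group, by depth that is known only as an estimate, by transfer RNA genes shorter than a read, and by nuclear copies with the same sequence. Exact permutation tests of 3 against 3 libraries have a smallest p of 0.1, so no share passed 0.05 under any setting. Causes of the changes below were not tested.

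Of 37 members 20 were called, and 9 of them (both ribosomal RNAs, mt-Ta, mt-Tn, mt-Tc, mt-Ty, mt-Th, mt-Ts2 and mt-Tl2) remained called in the same direction in all 18 alternatives. With no filter the members called higher numbered 3, of which 0 were messenger and 3 were transfer RNAs. Under quantile scaling the members called higher numbered 6, with 1 messenger RNA higher and 3 lower. Leaving out single libraries gave 4 to 7 messenger RNAs called higher. Replicate numbers did not pair the libraries, since the deviations of same-numbered libraries correlated at -0.06, 0.05 and -0.04. With the replicate block 2651 rows were called in place of 3501, and 11 members were higher and 8 lower. The block, added for the nuclear lists after the data were seen, left 0 genes of DNA maintenance and 4 of RNA processing called higher, and 2 biogenesis regulators called lower.

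On a common FPKM sum (TPM) the counts were 0 higher and 7 lower for DNA maintenance, 2 lower for transcription, 2 higher and 7 lower for RNA processing, 1 higher and 12 lower for transfer RNA charging, and 2 higher and 16 lower for nuclear oxidative phosphorylation. Under TMM scaling they were 12 higher for RNA processing, 4 higher for charging and 1 lower for oxidative phosphorylation. Leaving out single libraries gave 0 to 2 higher and 2 to 4 lower for DNA maintenance, 3 to 8 higher for RNA processing, 1 to 4 higher for charging, 2 to 3 lower for regulators, and 2 to 24 higher and 2 to 5 lower for oxidative phosphorylation. Of 23 called genes named from the nuclear lists by role, cell type markers and copies not counted, 15 remained called in all 9 alternatives run for them.

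Estimates that changed sign were small. On the log2 scale they were, under TPM, -0.106 for mt-Tv, -0.056 for mt-Tl1, -0.112 for mt-Tp, -0.016 for Gm28439 and -0.023 for Gm29216. Under quantile scaling they were -0.076 for mt-Tl1, -0.028 for mt-Nd1, -0.067 for mt-Co2, -0.044 for mt-Nd3, -0.055 for mt-Nd4, -0.010 for Gm10222, -0.064 for Gm29216 and -0.076 for Gm28661. Over single libraries left out the estimate ranged from -0.107 to 0.272 for mt-Tv, -0.421 to 0.059 for mt-Ti, -0.347 to 0.028 for mt-Tg, -0.166 to 0.011 for mt-Nd5 and -0.086 to 0.147 for mt-Tp. Differences in share of the mitochondrial sum, in percentage points, ranged from -0.00117 to 0.000208 for mt-Tv, -0.0120 to 0.359 for mt-Tq, -0.633 to 0.0737 for mt-Co1, -0.000841 to 0.0617 for mt-Ts1, -0.0617 to 0.615 for mt-Co2 and -0.160 to 0.144 for mt-Nd4l. Weighted by gene length, that of mt-Nd4l was 0.00547. The complex IV share of messenger RNA differed by -0.933 to 0.296 with single libraries left out and by 0.119 when weighted by length. The other 9 summary measures kept their sign in every alternative run for them.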
